A study of Bos taurus
Mus musculus with 10 samples.

Results

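ID1, ID2, ID3 and ID4, together with SMAD6, SMAD9 and ATOH8, are genes that bone morphogenetic protein (BMP) signalling is known to switch on. They were followed here in bovine embryonic stem cells and in the mouse feeder fibroblasts of the same wells, after 1 day without the tankyrase inhibitor IWR-1. The 7 genes were chosen by name, in the bovine table by symbol and in the mouse table by the gene IDs of Id1, Id2, Id3, Id4, Smad6, Smad9 and Atoh8. All 7 were found in each table, among 27590 bovine and 31349 mouse entries, and all 7 of each passed the filter on low values (at least 10 normalised reads in at least 5 libraries). The wells compared were those in medium without IWR-1 and those in complete medium with 2.5 µM IWR-1, 5 wells each, and both media were mTeSR1-based. Each of the stem cell lines 1, 2, 4, 8 and 11, all labelled wild type and derived from blastocysts of day 7.5, gave 1 well per medium. The feeders, present in every well, came from CD-1 mouse fetuses of day E13.5 and had been arrested with mitomycin C, so they are non-dividing cells. IWR-1 keeps AXIN stable and thereby dampens Wnt/beta-catenin signalling.

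BMP ligands bind paired type I and type II receptors on the cell surface, which phosphorylate SMAD1, SMAD5 and SMAD9. These join SMAD4, enter the nucleus and activate target genes, of which the ID genes are among the best known. ID proteins have a helix-loop-helix dimerisation domain but no DNA-binding basic region. They capture E proteins such as those of TCF3, TCF4 and TCF12 and so hold tissue-specific bHLH factors off the DNA. In mouse embryonic stem cells, BMP-induced Id proteins are known for blocking neural differentiation, whereas in human pluripotent cells BMP is known for driving differentiation. SMAD6 is an inhibitory SMAD that closes a negative feedback loop on BMP receptors, SMAD9 is a receptor-activated SMAD of weaker activity, and ATOH8 is a bHLH factor of the atonal family.

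Libraries were poly(A) RNA-seq, and each yielded 48064953 to 64345738 reads on bovine genes and 17101894 to 35223039 on mouse genes. The share of reads on mouse genes was 26.8% ± 8.44 without IWR-1 and 30.4% ± 7.57 with it (SD, n = 5 wells each). The wells of line 4 held the most mouse RNA, 41.4% without IWR-1 and 42.3% with it, whereas no well of another line exceeded 33.3%. Line 4 also differed in bovine fibroblast markers. The summed level of the 12 markers in line 4 was 129409 normalised reads without IWR-1 and 117046 with it. In the other lines that sum was 11101 to 40319 without IWR-1 and 8922 to 28801 with it. Line 4 was the highest line in both media for 10 of these 12, which included the collagen gene COL1A1, and POSTN was at 0 in the line 1 well with IWR-1. The 8 measured pluripotency markers summed to 95409 and 98541 in line 4, below the 102134 to 188957 of the other lines. The pluripotency genes POU5F1 and SOX2 were measured at 18294 to 62019 and 13371 to 22072 normalised reads over the 10 wells. Of the trophectoderm markers CDX2, GATA2, GATA3 and ELF5 were below the filter, with at most 75, 13, 33 and 6 reads in any well. The hypoblast genes GATA4 and SOX17 were below it as well, with at most 2 reads in any well. The other members of both lists passed the filter. KRT7 stood at 68.1 and 39.3 normalised reads in line 4 (without and with IWR-1) and 170 to 2090 in the other lines. TFAP2A had 428.2 and 376 in line 4 against 0.91 to 22.9, and TFAP2C had 78.5 and 52.4 against 2.96 to 31.1. In the hypoblast list, PDGFRA had 771 and 817.5 in line 4 against 61.75 to 190.7. GATA6 and FOXA2 lay at 10.1 to 33.4 and 3.89 to 74.9 over all wells. In bulk RNA, fewer cells of a type and less RNA per cell cannot be told apart.

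Removing IWR-1 for 1 day left the 4 bovine ID genes without a called change, while ATOH8 rose and SMAD6 shifted upward in every line without passing the threshold. Among the 7 bovine genes 1 rose, 0 fell and 6 were not called. Of 18506 tested bovine genes 0.951% were called, 0.886% as higher and 0.0648% as lower. In the feeders 0 of the 7 were called, where 4.19% of 15871 tested mouse genes were, 2.14% as higher and 2.05% as lower. The wells of the 2 media overlapped for all 7 genes of each table, and 0.113% of tested bovine and 0.554% of tested mouse genes had wells that did not overlap. The test throughout was limma on log2(normalised reads + 1), paired by stem cell line, and a gene was called at a Benjamini-Hochberg adjusted p under 0.05 over all tested genes of its table.

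ATOH8 was the bovine gene with the largest change of the 7. It stood at 27.6, 59.4, 840.2, 75.3 and 95.35 normalised reads in lines 1, 2, 4, 8 and 11 without IWR-1, against 13.2, 27.3, 574.7, 32.4 and 44.7 with it. Every line was higher without IWR-1, yet the wells of the 2 media overlapped, with or without line 4. Line 1 without IWR-1, for example, lay below lines 8 and 11 with it. The fold over the paired well was 2.10, 2.18, 1.46, 2.32 and 2.13 in that order of lines. The log2 fold change was 0.98 ± 0.16 (SE, 5 lines; 95% interval 0.62 to 1.35; limma adjusted p = 0.0236). The recovered reads behind it were few in line 1, with 28 without IWR-1 and 13 with it, and many in line 4, with 728 and 483. The call was held without line 2 (adjusted p = 0.0382) and ended without line 1, 4, 8 or 11 (adjusted p = 0.0897, 0.0704, 0.0549 and 0.129). The log2 fold change stayed between 0.93 and 1.09 in these fits. Across settings the adjusted p ran from 0.000215 with DESeq2 on recovered reads to 1 without the line as a block.

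SMAD6, the inhibitory SMAD, was also higher in 5 of 5 lines, a pattern shown by 6.2% of tested bovine genes, while 4.92% were lower in 5 of 5. With ATOH8 it made 2 of 7 bovine genes that went the same way in every line, where 11.1% of all tested genes did so. It had 372.4, 542.2, 821.8, 463.4 and 710.2 normalised reads in lines 1, 2, 4, 8 and 11 without IWR-1, against 279.4, 333.1, 734.2, 302.8 and 584.7 with it. The largest steps were in lines 2 and 8, at 1.63-fold and 1.53-fold, and the smallest was in line 4, at 1.12-fold. Its log2 fold change of 0.43 ± 0.10 (SE; 95% interval 0.22 to 0.65) missed the threshold over all genes (limma adjusted p = 0.0767). Before adjustment its limma p was 0.00111, and 10.1% of tested bovine genes had one under 0.05. DESeq2 on the recovered reads called it (adjusted p = 0.0119), while edgeR did not (adjusted p = 0.0768).

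The fibroblast markers, summed, were higher without IWR-1 in 5 of 5 lines, although 0 of the 12 were called (median log2 fold change 0.19). PDGFRB, at 0.56, and COL1A1, at 0.36, had the smallest adjusted p among them (0.0613 and 0.0711), and COL1A1 made up most of the sum in the lines other than line 4. The list did not go one way: 8 of the 12 had a positive log2 fold change, and COL1A2, at -0.30, and DCN, at -0.24, were each higher in 1 of 5 lines. The mouse share of reads was lower in 5 of 5. Their part in the values of ATOH8 and SMAD6 was not tested. The mesoderm markers that were measured also summed higher without IWR-1 in 5 of 5 lines. Of their 4 tested members 0 were called (EOMES at 0.45, limma adjusted p = 0.115, and TBX6 at 0.37, 0.591). TBXT and HAND1, below the filter with at most 148 and 6 reads in any well, were part of that sum. Of the pluripotency markers 1 of 8 rose, NANOG, by 0.33 (limma adjusted p = 0.0411, a call held only without line 8), and in each of the 5 lines their sum was smaller without IWR-1. Among 3 tested trophectoderm and 3 tested hypoblast markers 0 were called, with TFAP2A at -0.70 (0.748), KRT7 at 0.11 (0.913), FOXA2 at -1.02 (0.523) and PDGFRA at 0.07 (0.952).

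SMAD9, the third of the genes outside the ID family, was not called. It stood at 273.9, 334.7, 500.9, 283.8 and 372.6 normalised reads in lines 1, 2, 4, 8 and 11 without IWR-1, against 220.7, 339.4, 496.2, 241.7 and 415.7 with it. The changes went both ways, up in lines 1, 4 and 8 and down in lines 2 and 11. The fit gave 0.08 ± 0.10 (SE; 95% interval -0.15 to 0.30; limma adjusted p = 0.906), or 0.02 without line 1 and 0.13 without line 11.

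**Figure D1:**
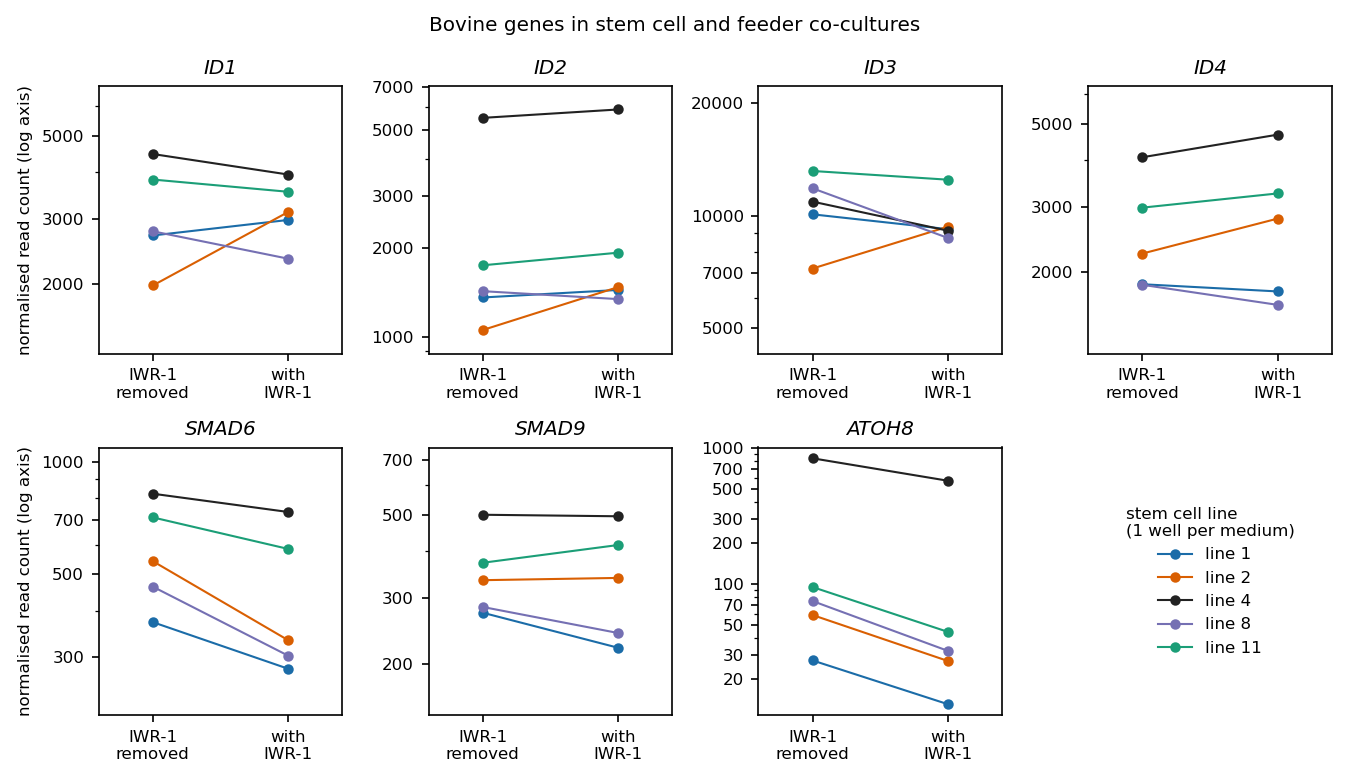
Normalised read counts (log axis) of the 7 bovine genes in each well, without IWR-1 on the left and with IWR-1 on the right of each panel, and each coloured line joining the 2 wells of 1 stem cell line. ATOH8 and SMAD6 slope down to the right in all 5 lines, the ID genes do not share a slope, and line 4 (black) is the highest line in both media for 6 of the 7 genes.

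The 4 ID genes did not move together with the medium. ID1 had 2704, 1986, 4466, 2774 and 3816 normalised reads in lines 1, 2, 4, 8 and 11 without IWR-1, against 2975, 3126, 3935, 2343 and 3538 with it. It was higher in lines 4, 8 and 11 and lower in lines 1 and 2, and the groups overlapped almost fully (log2 fold change -0.05 ± 0.11 SE, 95% interval -0.30 to 0.20, limma adjusted p = 0.955). The sign of this mean rested on line 2, without which it was 0.10.

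ID3 had 10074, 7213, 10894, 11826 and 13159 normalised reads in lines 1, 2, 4, 8 and 11 without IWR-1, against 9193, 9339, 9107, 8708 and 12470 with it. It was higher in 4 of 5 lines, with line 2 the exception (0.11 ± 0.10 SE, 95% interval -0.11 to 0.32, limma adjusted p = 0.833). Without line 2 the change was 0.23, and without line 8 it was 0.02, neither of them called (adjusted p = 0.171 and 0.946).

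ID2 had a negative mean change. It stood at 1362, 1057, 5494, 1430 and 1748 normalised reads in lines 1, 2, 4, 8 and 11 without IWR-1, against 1444, 1476, 5864, 1345 and 1928 with it. It was lower in 4 of 5 lines, all but line 8 (-0.14 ± 0.08 SE, 95% interval -0.32 to 0.03, limma adjusted p = 0.636), and without line 2 the change was -0.06. ID4 had 1858, 2245, 4064, 1852 and 2979 without IWR-1, against 1778, 2785, 4672, 1636 and 3252 with it, lower in lines 2, 4 and 11 and higher in lines 1 and 8 (-0.08 ± 0.08 SE, 95% interval -0.25 to 0.09, limma adjusted p = 0.85), and it was -0.02 without line 2 and -0.14 without line 8. The misses of the threshold do not show that the ID genes were unaffected. Their 95% intervals, per gene and not adjusted for the number of genes, bound the mean change between -0.32 and 0.32 on the log2 scale.

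**Figure D2:**
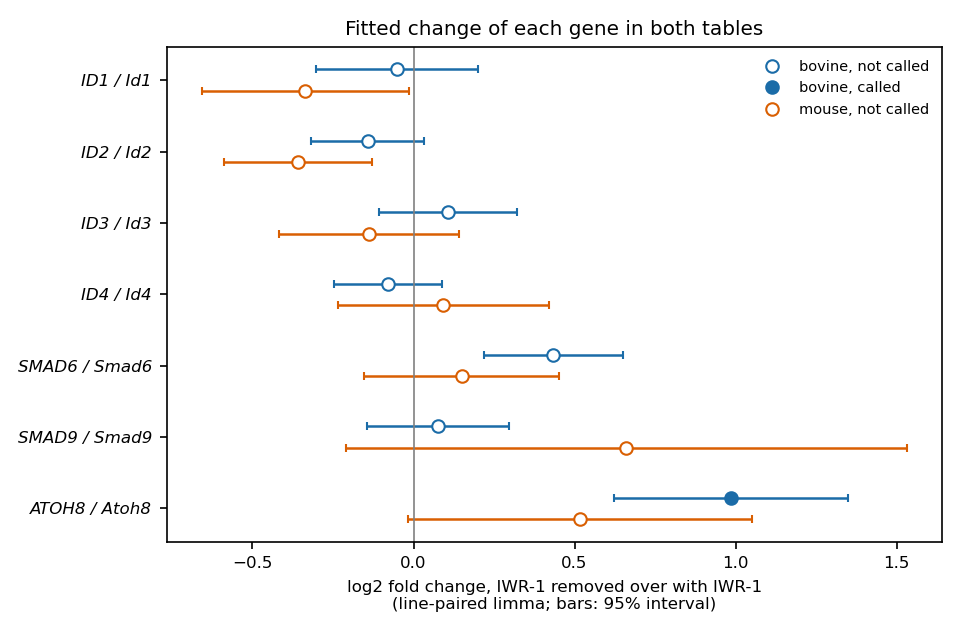
Log2 fold change of each gene, medium without IWR-1 over medium with it, from the line-paired limma fit, with bars for the 95% interval; bovine genes are blue and mouse genes orange, and a filled point marks a called gene. Bovine ATOH8 is the one filled point, and the bovine ID genes lie within -0.32 to 0.32 including their bars.

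The 4 bovine ID genes shared a direction in lines 2 and 8 and not in the other 3. In line 2 all 4 bovine ID genes were lower without IWR-1, by 0.65 (ID1), 0.48 (ID2), 0.37 (ID3) and 0.31 (ID4) on the log2 scale. In line 8 all 4 were higher, at 0.24, 0.09, 0.44 and 0.18 in the same order. The other lines each had 2 ID genes up and 2 down. Of all tested bovine genes, 51% were higher without IWR-1 in line 8 and 53.2% in line 2. Line 2 is 1 pair of wells. Only ID1 of the ID genes was lower by over 0.5 in it, as were 10.7% of tested bovine genes. In that same line SMAD6 and ATOH8 were higher, at 0.70 and 1.09, so the 7 genes went in opposite directions within 1 well pair.

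**Figure D3:**
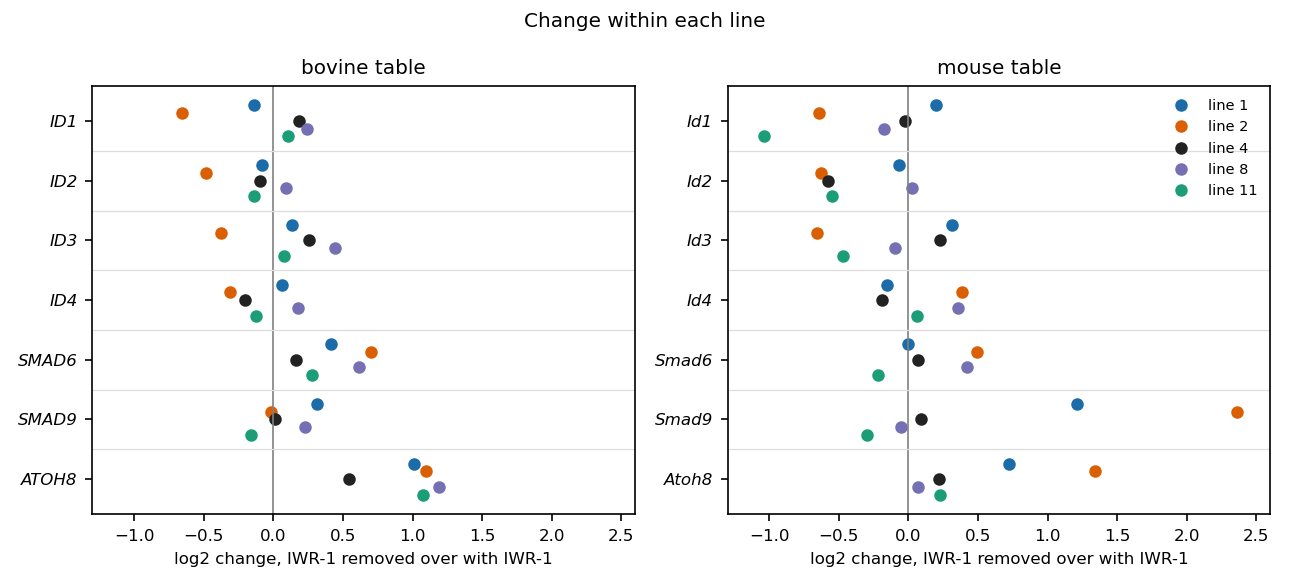
Log2 change between the 2 wells of each line, without IWR-1 over with IWR-1, for the 7 bovine genes (left) and the 7 mouse genes (right), 1 point per stem cell line. Line 2 (orange) lies left of zero for all 4 bovine ID genes and for mouse Id1, Id2 and Id3, and right of zero for SMAD6 and ATOH8 of both species.

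The stem cell line took a larger share of the variation than the medium for each of the 7 bovine genes. There are more lines than media, so the line is expected to take the larger share even where neither has an effect. The shares are not adjusted for that. The line took 66.7% (ID3) to 97.9% (ID2) of the sum of squares of a gene's log2 values, against a median of 84.5% over all tested bovine genes. The medium took 0.57% (ID1) to 16.4% (SMAD6), against a median of 1.71%. Line 4 had the highest level in both media for 6 of the 7 genes, ID3 being the exception, where 19.1% of tested bovine genes had that pattern. Line 11 came next for those 6, an order of the line means (line 4 first, line 11 second) that 11.1% of tested genes showed.

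ATOH8 and ID2 set line 4 apart most. The ATOH8 mean of line 4 over its 2 wells was 15.1-fold that of the other lines, and its 2 wells, 574.7 to 840.2, lay above all others, 13.2 to 95.35. Below it, lines 11, 8, 2 and 1 followed with neighbours whose wells overlapped when both media were pooled. Within each medium alone the ATOH8 levels stood in that same order of lines. For ID2 line 4 was 3.85-fold higher than the other lines, at 5494 to 5864 against 1057 to 1928. Line 11 came next at 1748 to 1928 without overlap, and lines 1, 8 and 2 could not be separated.

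For ID4 the order was line 4, 11, 2, 1 and 8, and only lines 1 and 8 overlapped. For SMAD6 lines 4 and 11 stood above lines 2, 8 and 1, which overlapped with their neighbours. SMAD9 ran in the same order of lines as SMAD6, and only lines 8 and 1 overlapped. These overlaps pool both media, and for ID4, SMAD6 and SMAD9 the order of lines was the same in each medium alone. The ID1 order was line 4, 11, 1, 8 and 2, with the last 3 overlapping. ID3 differed, with line 11 highest at 12470 and 13159, and lines 8, 4, 1 and 2 overlapping with their neighbours. The fibroblast markers described above were high in line 4 as well, and their part in these line differences was not tested. Levels are not compared between genes, since no transcript lengths were at hand.

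Likeness of pattern was measured by Pearson's r of log2 levels over the 10 wells, against 14643 other tested bovine genes with a proper symbol. For ATOH8 the closest were PAK5 (r = 0.996; 0.978 over the 8 wells without line 4) and TAOK3 (0.987; 0.929), both protein kinases. For ID2 they were LZTS1 (0.988; 0.864) and the transcription factor EBF1 (0.988; 0.846). EBF1 had 1933 and 1940 normalised reads in line 4 and 132.4 to 224.4 elsewhere. For SMAD6 they were the small GTPase gene RAB31 (0.971; 0.951) and the pseudokinase gene FAM20A (0.965; 0.947), and FAM20A was itself called as higher (log2 fold change 1.61, limma adjusted p = 0.00232). ID4 was closest to ARHGAP1 (0.989; 0.973) and FAM217B (0.972; 0.952), ID1 to the galactosyltransferase gene B4GALT3 (0.977; 0.964) and ARMC7 (0.972; 0.959). ID3 was closest to PCP2 (0.959; 0.964) and SIVA1 (0.954; 0.957), and SMAD9 to C1H3orf70 (0.971; 0.939) and the metalloprotease inhibitor gene TIMP4 (0.970; 0.951). The wells share lines, so these are descriptions of the libraries, and the highest of so many values is high by selection.

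In the mouse feeders of the same wells, Id1 and Id2 were lower without IWR-1 in 4 of 5 lines each, and neither passed the threshold. Id2 had 1026, 705.6, 571.7, 705.6 and 316.2 normalised reads in the wells of lines 1, 2, 4, 8 and 11 without IWR-1, against 1076, 1092, 852.1, 691.6 and 464.1 with it. It was lower by 0.55 to 0.63 on the log2 scale in lines 2, 4 and 11 and close to level in lines 1 and 8. Its log2 fold change was -0.36 ± 0.11 (SE; 95% interval -0.59 to -0.13; limma adjusted p = 0.0873). DESeq2 on recovered reads called it lower (adjusted p = 0.0356), as did limma without line 8 (-0.46, adjusted p = 0.0163).

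Id1 had 902, 339.4, 595.7, 959.7 and 289.7 normalised reads in lines 1, 2, 4, 8 and 11 without IWR-1, against 785.2, 531.7, 605.6, 1084 and 594.7 with it. The steepest difference was in line 11, at 0.487-fold, and line 1 went the other way at 1.15-fold (log2 fold change -0.34 ± 0.15 SE, 95% interval -0.66 to -0.02, limma adjusted p = 0.28). Without line 11 the change was -0.16. An unadjusted limma p under 0.05, which Id1 (0.0414) and Id2 (0.00526) had, was reached by 16.2% of tested mouse genes.

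Id3 was at 1282, 459.8, 1157, 818.1 and 429.1 normalised reads in lines 1, 2, 4, 8 and 11 without IWR-1, against 1034, 726.2, 991.3, 876.1 and 595.4 with it. It was higher in lines 1 and 4 and lower in the others (-0.14 ± 0.13 SE, 95% interval -0.42 to 0.14, limma adjusted p = 0.685). Omitting line 2 gave -0.0093 and omitting line 11 gave -0.06, whereas omitting line 1 or line 4 gave -0.25 and -0.23. Id4 was the lowest counted of the mouse Id genes, with 54 to 120.6 normalised reads without IWR-1 and 51.65 to 134.1 with it (0.09 ± 0.15 SE, 95% interval -0.23 to 0.42, limma adjusted p = 0.847), and its change lay between 0.02 and 0.16 with 1 line omitted.

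Mouse Atoh8 was higher without IWR-1 in 5 of 5 lines, the 1 mouse gene of the 7 that went the same way in every line. Of tested mouse genes 7.83% were higher in 5 of 5 lines and 15.7% went the same way in all. It had 75.1, 38.9, 48.6, 41.15 and 12.8 normalised reads in lines 1, 2, 4, 8 and 11 without IWR-1, against 45.1, 14.7, 41.6, 39.2 and 10.8 with it. The steps were 2.64-fold in line 2 and 1.67-fold in line 1 but only 1.05-fold to 1.19-fold in the other lines, on 13 to 81 reads per well. It was not called (0.52 ± 0.24 SE, 95% interval -0.02 to 1.05, limma adjusted p = 0.33), and without line 2 the change was 0.31.

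Smad6 had 90.3 to 177.9 normalised reads without IWR-1 and 100.2 to 144.2 with it, higher in lines 2, 4 and 8 (0.15 ± 0.14 SE, 95% interval -0.15 to 0.45, limma adjusted p = 0.69), or 0.06 without line 2 and 0.24 without line 11. Smad9 was close to the filter and imprecise. Its wells without IWR-1 were tight, at 22.15, 24.3, 18, 21.8 and 16.7 in lines 1, 2, 4, 8 and 11, against 9.01, 3.93, 16.9, 22.7 and 20.8 with it. The low well of line 2 rested on 4 reads, and the fit gave 0.66 ± 0.40 (SE; 95% interval -0.21 to 1.53; limma adjusted p = 0.48), or 0.24 without line 2.

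**Figure D4:**
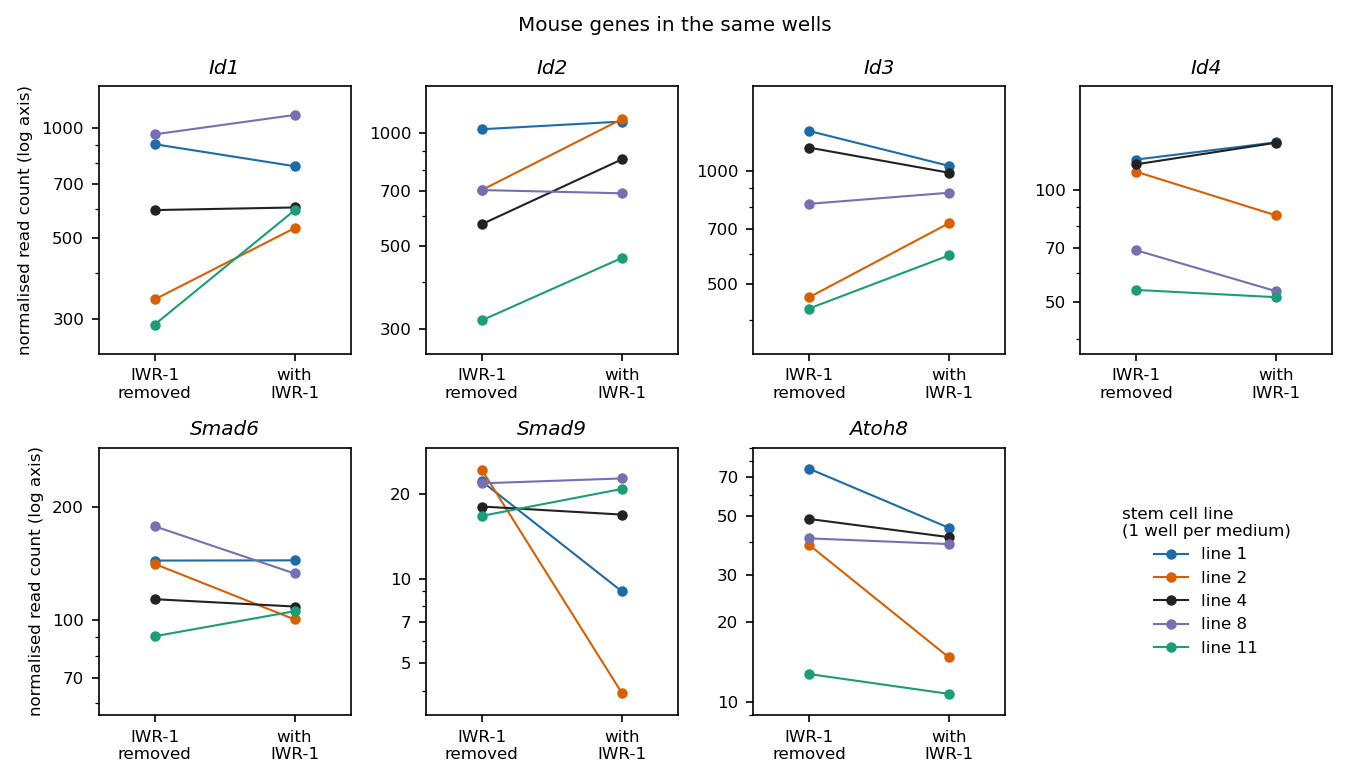
Normalised read counts (log axis) of the 7 mouse genes in each well, without IWR-1 on the left and with IWR-1 on the right of each panel, each coloured line joining the 2 wells of 1 stem cell line. Atoh8 slopes down to the right in all 5 lines, Id1 and Id2 are higher on the right in 4 of 5, and line 11 (green) is at the low end of most panels.

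The order of the wells differed between the species. Line 4, at the top of 6 bovine genes, was the highest in both media for 0 of 7 mouse genes, where 6% of tested mouse genes had that pattern. At so low a share, 0 of 7 is not particular to these genes. Line 11, in first or second place for all 7 bovine genes, had the lowest mouse line mean for 5 of 7 (Id2, Id3, Id4, Smad6 and Atoh8), a place it held for 21.1% of tested mouse genes. The assignment of reads matching both species is not stated in the sources used here. Its part in the bovine ATOH8 level of line 4 was not tested. Mouse Atoh8 in line 4 had 48.6 and 41.6 normalised reads without and with IWR-1, below line 1 in the same medium. In recovered reads line 4 stood above line 1, at 81 and 69 against 61 and 40. Levels of a bovine gene and its mouse counterpart had Pearson's r between -0.449 (SMAD6) and 0.148 (ID4) over the 10 wells, or -0.521 (ID2) to 0.034 (SMAD9) over the 8 without line 4. The points share wells and line effects.

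Set side by side, the changes had the same sign in 5 of 5 lines for ATOH8 with Atoh8 and for ID2 with Id2. The counts were 3 of 5 for ID3, SMAD6 and SMAD9, 2 of 5 for ID4 and 1 of 5 for ID1. In line 2 mouse Id1, Id2 and Id3 were all lower without IWR-1, by 0.65, 0.63 and 0.66 on the log2 scale, as all 4 bovine ID genes were in that line, whereas mouse Id4 was higher, at 0.38. The 2 tables were scaled separately, so the species were not tested against each other. The line took 26.7% (Smad9) to 94.1% (Id4) of the sum of squares in the mouse genes, against a median of 69.6% over all tested mouse genes, and the medium 0.75% to 22.4%, against a median of 4.66%.

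The rest of the BMP pathway and the partners of ID proteins were then read in the bovine table, in 6 lists. Over these lists 5 of 76 tested genes rose and 0 fell, with a median log2 fold change of 0.06, against 0.886% of all tested bovine genes called as higher and a median of -0.005. The lists were chosen with earlier results of these data known, so this contrast is a description. The genes that rose were a ligand, an antagonist, a pair of homeobox targets and a partner of ID proteins. Mouse genes other than the 7 have no names in the sources used here and were not read.

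Among ligands, 1 of 8 tested genes rose, with a median of 0.43. BMP4, the ligand best known for inducing ID genes, had 364.6, 1012, 2130, 602.1 and 1771 normalised reads in lines 1, 2, 4, 8 and 11 without IWR-1, against 274.3, 633.6, 1545, 305.6 and 847 with it. It was higher in every line (0.72 ± 0.10 SE, limma adjusted p = 0.0137), and the call ended without line 11 (0.63, adjusted p = 0.0851). In line 2, where the 4 ID genes were lower, BMP4 was higher. That is 1 pair of wells, and a link between BMP4 and the ID genes was not tested.

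Of 12 tested genes listed as secreted antagonists, 1 rose and the log2 fold changes ran from 0.0018 (CHRDL2) upward (median 0.21). GREM1 had 216.8, 577.7, 2477, 377.2 and 3533 normalised reads in lines 1, 2, 4, 8 and 11 without IWR-1, against 98.2, 273.2, 1179, 159.3 and 948 with it. It more than doubled in every line (1.28 ± 0.12 SE, limma adjusted p = 0.00128) and was still called whichever of the 5 lines was omitted.

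No receptor or SMAD on the lists was called. Of 11 tested receptors and co-receptors 0 were called (median -0.03). The type I receptor gene BMPR1A was at -0.01 ± 0.06 and the type II receptor gene BMPR2 at -0.06 ± 0.11 (SE). ACVR1, another type I receptor, at -0.18, and the co-receptor RGMA, at 0.13, had the smallest adjusted p of the list (0.317 and 0.446). Of 18 tested SMADs and their inhibitors 0 were called (median 0.03). SMAD1 was at -0.07 ± 0.05, SMAD5 at 0.02 ± 0.06 and SMAD4, the shared partner, at -0.02 ± 0.07 (SE). The inhibitory SMAD7 was higher in 5 of 5 lines at 0.21 ± 0.06 (SE) and was not called (limma adjusted p = 0.228). TOB2 was at -0.12.

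Of 17 other reported BMP targets, 2 rose and 0 fell (median 0.15). MSX1 (1.83 ± 0.25 SE, limma adjusted p = 0.0124) and MSX2 (0.94 ± 0.13 SE, limma adjusted p = 0.0131) encode homeobox factors that are also known as Wnt targets. Both calls ended without line 11 (adjusted p = 0.0607 and 0.0769). MSX1 was low in most wells, with 4.05, 5.25, 330.8, 13 and 38.9 normalised reads in lines 1, 2, 4, 8 and 11 with IWR-1. Without IWR-1 it had 13.8, 17.7, 799.8, 48.1 and 301.6. Adding 10 rather than 1 before the log gave 1.38 for MSX1, still called (limma adjusted p = 0.0305). Its call ended without the filter on low values (limma adjusted p = 0.0511). AXIN2, the feedback gene of Wnt signalling that serves as its usual readout, rose by 0.74 ± 0.13 (SE) in the same wells (limma adjusted p = 0.0258), a call that ended without line 4, 8 or 11.

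Of 13 tested partners of ID proteins, 1 rose and 0 fell (median 0.02). The E protein genes TCF3 (0.05 ± 0.05 SE) and TCF12 (-0.05 ± 0.07 SE) were not called. ETS1, whose factor ID proteins are reported to bind, rose by 0.44 ± 0.08 (SE; limma adjusted p = 0.0352), and that call was held only without line 8.

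**Figure D5:**
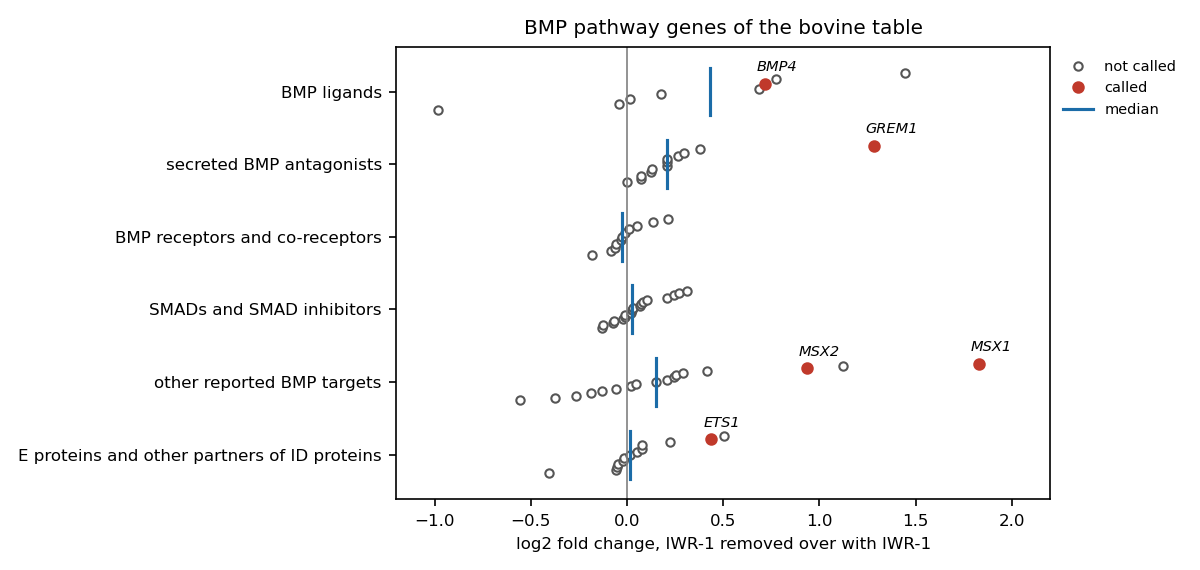
Log2 fold change, medium without IWR-1 over medium with it, of every tested bovine gene on 6 lists, 1 point per gene, with called genes filled in red and named and the list median as a blue bar. The called genes, BMP4, GREM1, MSX1, MSX2 and ETS1, are all to the right of zero, and the receptor and SMAD lists cluster around it.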

How the data were processed

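RNA of bovine stem cells and mouse feeders was measured together in 10 wells. ARS-UCD1.3 (bovine) and GRCm39 (mouse) were the builds, per the labels. Tools listed, without roles, are featureCounts 1.5.0-p3, StringTie 1.3.3b, HISAT2 2.0.5 and fastp, per the submitters' processing notes. The deposited tables hold a normalised signal per gene and library, and no label or header states its scaling. In each library 100% of positive values were whole multiples of 1 step (tolerance 0.01 reads), which gave whole reads. On those reads edgeR called 190 bovine and 727 mouse genes. The mouse table's 2 columns without a sample label were not used, though its scaling may rest on them.

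Of 27590 bovine IDs, 24660 matched RefSeq's ARS-UCD2.0 gene table for symbols. The test was limma 3.58.1 (R 4.3.3), fitted to log2(signal + 1) with an intensity trend and the line as a block. The added 1 understates changes of low genes. The limma fit was tested on simulated data with known changes. The line numbers pair wells because each line was divided over both media, per the labels. Deviations from group means correlated within lines at 0.617 to 0.883 (bovine) and 0.488 to 0.725 (mouse). Each line gave 1 well per medium, so p-values also hold differences between wells. Alternatives were TMM scaling, edgeR 4.0.16, DESeq2 1.42.0, other pseudocounts and filters, no block, no trend and leaving out each line.

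The 7 genes and the lists were chosen with earlier results of these data known. From each pathway or marker list the text names every called gene, up to 3 per direction, or else the 2 with the smallest adjusted p, and always BMP4, GREM1, BMPR1A, BMPR2, SMAD1, SMAD5, SMAD4, TCF3, TCF12 and AXIN2. Each of the 7 genes has the 2 bovine genes most like it. Other genes named were chosen after their values were seen. No sequences are shown.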

Additional observations from a re-analysis of the deposited data

Results flagged for a closer look

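In 6 of 42 sets of 5 values (the levels in each medium and the changes over lines), 1 value lay far from the rest by Dixon's ratio, its gap divided by the range (critical value 0.71). Chance gives about 1 in 20 for independent sets of normal values. These sets share wells, and the levels are not log values, so 6 of 42 cannot be set against that rate. All 6 were in the bovine table, and line 4 was the far one in 5. Line 4 was highest for ATOH8 without IWR-1 (ratio 0.917) and with it (0.944), and for ID2 without IWR-1 (0.844) and with it (0.871). The ATOH8 change of line 4, at 0.55, was the lowest of the 5 lines (ratio 0.725). Line 11 was highest for ID3 with IWR-1 (ratio 0.832).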

How the results depend on the processing

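Of 194 values of the 14 genes under alternatives, 183 kept their direction and their side of the threshold, 7 lost the call (all ATOH8), 3 gained one (SMAD6 and, under 2 settings, mouse Id2) and 1 changed sign. Bovine ID1 lay between -0.13 and 0.10 with 1 line left out, positive without line 2. The number of the 14 genes called was 1, and became 3 with DESeq2 and 0 without the filter, without the trend and without the line as a block. It was 0 to 1 with 1 line left out, the 1 being ATOH8 without line 2 and mouse Id2 without line 8. Called bovine genes numbered 176, against 422 with DESeq2, 53 without the filter, 0 without the trend (1779 at an unadjusted p under 0.05) and 31 to 184 with 1 line left out. For the mouse the number was 665, against 329 without the filter, 83 without the trend and 269 to 936 with 1 line left out. Without the line as a block limma called 0 genes in both tables, with 105 bovine and 584 mouse genes at an unadjusted p under 0.05. The cause of these shifts was not tested. Mouse Smad9 and Atoh8 were below the stricter filter of 50. Low counts limit Smad9, at 4 to 30 reads per well.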
